A study of Arabidopsis thaliana with 20 samples.

Results

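The genes described here are NCED3, a gene of abscisic acid (ABA) synthesis, and the 9 genes of the clade A PP2C phosphatases of *A. thaliana*. They were taken by identifier from the table of the first set of libraries, which lists 33296 genes, and all 10 were found in it. Shoots of Col-0 plants were sequenced in that set after growth in sealed Petri dishes, with 4 aerated and 4 non-aerated libraries and 10 plants from a single dish pooled in each. Aerated dishes received filtered air at 0.15 to 0.25 L per minute from the day after the cold period, whereas non-aerated dishes were opened and closed once on that day and stayed Parafilm-sealed without air flow. Both treatments shared the medium (0.5x MS with 1% sucrose), 4 days in the cold and growth at 22 °C. Per the labels, harvest was 15 days after the cold period. The study's results section gives another day, while its methods give a time close to that of the labels. A second set of Micropore-sealed, non-aerated and aerated dishes is held only as a table of comparisons, which was not used here. Libraries are named by the numbers in the table's header, which are odd for aerated libraries (1, 3, 5 and 7) and even for non-aerated libraries (2, 4, 6 and 8).

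ABA is the hormone with which plants answer water shortage, closing stomata and switching on protective genes. NCED3 encodes an epoxycarotenoid dioxygenase, which cleaves a carotenoid precursor in the plastid and is the rate-limiting step of ABA synthesis in leaves under drought. The clade A phosphatases hold the pathway off by dephosphorylating SnRK2 kinases. When ABA binds its PYR/PYL receptors, the complex blocks the phosphatases and the freed kinases phosphorylate ion channels and ABF transcription factors. Several phosphatase genes are themselves induced by ABA, which closes a feedback loop.

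Most of the 10 genes did not pass the test between treatments, and the only one that did was NCED3, which was lower without air flow. Of the 8 genes with enough reads to be tested, 1 was lower and 0 were higher at an adjusted p under 0.05 (limma, Benjamini-Hochberg over 20160 genes). Across all tested genes 10.0% were lower and 12.4% were higher by this rule, or 22.4% in either direction. The groups overlapped in all 8 tested members, while they did not overlap in 27.3% of all tested genes (14.3% higher and 13.0% lower). With a fold change of at least 2 as well, 0 members were called, against 7.88% of all genes (5.24% higher and 2.63% lower). An unadjusted p under 0.05 was found for 3 members (NCED3, HAB1 and HAI2), against 36.1% of all genes. The same test called 0 of the 7 tested phosphatases, of which 2 had an unadjusted p under 0.05, and edgeR called 0 members while DESeq2 called 2, NCED3 and HAB1. The log2 fold change (non-aerated over aerated) was positive in 5 and negative in 2 of the 7 tested phosphatases, with a median of 0.27 where the median of all genes was -0.002.

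**Figure D1:**
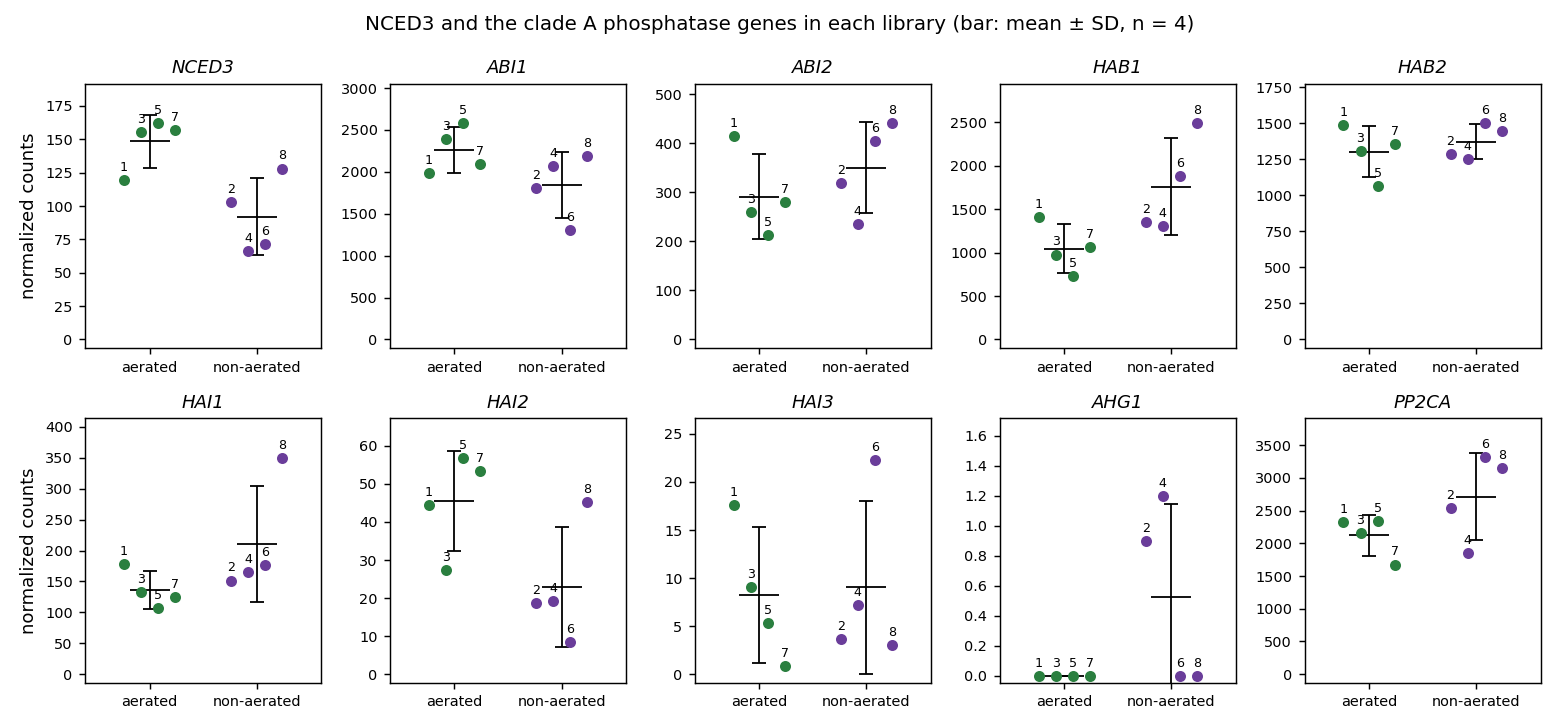
Normalized counts of each of the 10 genes on the vertical axis, in aerated (green) and non-aerated (purple) libraries, with each point labelled by its library number and the bar giving mean ± SD (n = 4). NCED3 is the only gene past the test, and its point for non-aerated library 8 (128.1) lies above that of aerated library 1 (119.3).

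NCED3 (AT3G14440, chr3:4831286-4834015, minus strand) had 119.3, 155.3, 162.2 and 157.3 normalized counts in aerated libraries 1, 3, 5 and 7. In non-aerated libraries 2, 4, 6 and 8 it had 103.1, 66.1, 71.2 and 128.1. Non-aerated libraries 4 and 6 were the lowest, and library 8 overlapped the aerated range. The means were 149 ± 19.7 (SD, n = 4) with air flow and 92.1 ± 29.0 (SD, n = 4) without, a log2 fold change of -0.72 (SE, the standard error of the fit, 0.23, adjusted p = 0.0458, limma). The exact permutation test of this gene alone gave p = 0.0571 (two-sided), where 4 against 4 libraries allow 0.0286 at the lowest. Between 55 and 183 reads per library lay behind these values. The call was lost when any of libraries 2, 3, 4, 5, 6 or 7 was left out (adjusted p between 0.0602 and 0.114, limma), and it held without library 1 (0.0469) and without library 8, where the log2 fold change was -0.90 (adjusted p = 0.0121, limma). It was also lost with edgeR (adjusted p = 0.0558). The summed companion cell markers of the phloem were lower without air flow too (21401 to 24127 against 13872 to 18464 normalized counts, 1 of 2 called), and their part in this result was not tested.

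The other dioxygenase genes of the same family were near or at 0. NCED2 ranged from 2.1 to 15.6 normalized counts, NCED5 from 1.7 to 19.2 and NCED9 from 0 to 9.2, and NCED6 was at 0 in every library. None of these genes had enough reads to be tested, so NCED3 was the only family member in the test.

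The phosphatase pair ABI1 and ABI2 carries the founding genes of the clade, in which a dominant mutation makes plants insensitive to ABA. ABI1 (AT4G26080, chr4:13219915-13222376, minus strand) had 1988.2, 2392.7, 2586.9 and 2091.8 normalized counts in aerated libraries 1, 3, 5 and 7, and 1805.4, 2067.3, 1309.5 and 2186.4 in non-aerated libraries 2, 4, 6 and 8. Library 6 was far below the others, and libraries 4 and 8 lay inside the aerated range. The log2 fold change was -0.32 (SE 0.16, adjusted p = 0.189, limma), and -0.16 without library 6. ABI1 shares 22 bases with AT4G26070 on the opposite strand, and the reads carried no strand.

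ABI2 (AT5G57050, chr5:23087122-23089631, plus strand) was expressed at a lower level, with 414.1, 259.3, 212.3 and 279.4 normalized counts in the aerated libraries in the same order. The non-aerated libraries had 318.7, 234.5, 405.0 and 441.5. High values stood in aerated library 1 and in non-aerated libraries 6 and 8, so that the treatments overlapped broadly. The log2 fold change was 0.27 (SE 0.24, adjusted p = 0.463, limma), and from 0.13 (without library 5) to 0.45 (without library 1) when a library was left out. For every within-library ratio given here, 1 was added to each normalized count. The ratio of ABI1 to ABI2 within a library was 4.79, 9.20, 12.1 and 7.46 with air flow and 5.65, 8.78, 3.23 and 4.94 without. These ranges overlap, and the log2 ratio differed by -0.58 (SE 0.41, exact permutation p = 0.229, two-sided, or 0.457 adjusted over the 6 pairs compared), and by -0.83 to -0.34 when each library was left out.

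HAB1 and HAB2 are the second pair, and HAB1 is known as a brake on ABA responses in stomata and seeds. HAB1 (AT1G72770, chr1:27389948-27393327, plus strand) had 1408.6, 977.6, 730.4 and 1061.8 normalized counts in aerated libraries 1, 3, 5 and 7. In non-aerated libraries 2, 4, 6 and 8 it had 1347.3, 1307.2, 1883.5 and 2495.4. Library 8 was the highest, and aerated library 1 lay above non-aerated libraries 2 and 4. The means were 1045 ± 280 (SD, n = 4) and 1758 ± 557 (SD, n = 4), with a log2 fold change of 0.74 (SE 0.24, adjusted p = 0.0512, limma; exact permutation p = 0.0857, two-sided). This missed the threshold narrowly. The gene was called with DESeq2 (log2 fold change 0.75, adjusted p = 0.0145) and with limma when library 1 (adjusted p = 0.0306), 2 (0.0494) or 4 (0.0417) was left out. It was not called without library 3, 5, 6, 7 or 8. The log2 fold change fell to 0.55 without library 8 (adjusted p = 0.0864, limma) and to 0.58 without library 5 (adjusted p = 0.128, limma).

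HAB2 (AT1G17550, chr1:6034270-6037398, plus strand) had 1486.7, 1305.4, 1061.4 and 1355.0 normalized counts in the aerated and 1286.0, 1254.3, 1504.0 and 1445.8 in the non-aerated libraries. The values were close together, with means of 1302 ± 178 and 1373 ± 121 (SD, n = 4 each) and a log2 fold change of 0.08 (SE 0.12, adjusted p = 0.661, limma). Without aerated library 5 the log2 fold change was -0.012. Within a library the ratio of HAB1 to HAB2 was 0.948, 0.749, 0.688 and 0.784 with air flow, and 1.05, 1.04, 1.25 and 1.73 without. Each non-aerated library thus had more HAB1 than HAB2 counts and each aerated library fewer. These counts are not corrected for gene length. Per kilobase of exons, HAB1 was below HAB2 in non-aerated libraries 2 (482 against 487) and 4 (468 against 475). The log2 ratio differed by 0.66 (SE 0.20, exact permutation p = 0.0286, two-sided, the lowest that this design allows). Adjusted over the 6 pairs compared, this p was 0.0857, and the difference stayed between 0.50 and 0.75 when each library was left out in turn. How often ratios of other gene pairs separate between treatments was not counted.

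The starts of HAB1 and HAB2 are shown because their ratios did not overlap between treatments and both genes were well expressed, although the adjusted p of the difference did not pass. The sequences are the 250 bases before each annotated gene start, 5′ to 3′ on the strand of the gene, from RefSeq TAIR10.1. Capitals mark ACGTG, the core of the ABA response element bound by ABF factors, or its reverse complement CACGT. HAB1 is chr1:27389698-27389947 and HAB2 is chr1:6034020-6034269.
HAB1: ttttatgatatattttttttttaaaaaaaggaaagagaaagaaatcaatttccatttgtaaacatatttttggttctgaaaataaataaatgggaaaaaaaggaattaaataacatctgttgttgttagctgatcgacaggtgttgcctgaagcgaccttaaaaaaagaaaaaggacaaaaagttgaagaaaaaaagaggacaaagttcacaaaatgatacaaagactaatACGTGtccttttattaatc
HAB2: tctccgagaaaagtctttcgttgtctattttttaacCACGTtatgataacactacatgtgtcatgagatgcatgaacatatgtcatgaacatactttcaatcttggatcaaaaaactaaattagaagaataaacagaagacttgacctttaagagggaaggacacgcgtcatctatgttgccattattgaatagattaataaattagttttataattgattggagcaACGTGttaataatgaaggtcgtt

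Both genes hold the core shortly before their start, at positions -19 to -15 in HAB1 and -23 to -19 in HAB2, counted with 0 as the first base of the gene. HAB1's core lies in the longer form ACGTGTC, and HAB2 holds another core at -214 to -210 on the other strand. In the window from 250 bases before to 50 bases from the start, the core occurred on either strand in 6 of the 10 members, and in 7333 of 27443 windows of all genes (26.7%). The longer forms ACGTGGC and ACGTGTC, which contain the core, occurred in 3 members and in 7.64% of all windows. In PP2CA and HAI2 there were 4 cores each, overlapping CACGTG palindromes being counted once. The core nearest to the start of the other 4 genes is given in capitals with its neighbours, to show the bases around it. They are chr1:2282824-2282852 (HAI2, minus strand), chr2:12608628-12608656 (HAI3, plus strand), chr5:21026791-21026819 (AHG1, plus strand) and chr3:3585871-3585899 (PP2CA, minus strand).
HAI2: gcacgctttgtaACGTGtaacgatgatat
HAI3: agaatgcaagtaACGTGtaatgacattat
AHG1: cgaaacaccgaCACGTGttctgtcttcct
PP2CA: tgcccgttaattACGTGtaacccttccat

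**Figure D2:**
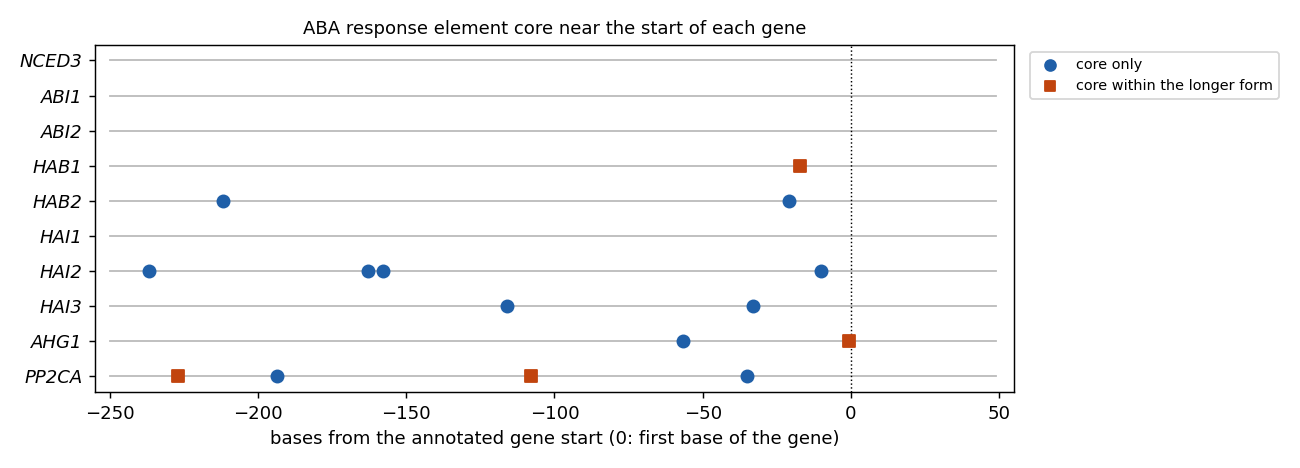
Positions of the ABA response element core in the window around the start of each gene, with bases from the gene start on the horizontal axis and one line per gene. Circles are the core alone and squares the core within the longer form. HAI2 and PP2CA hold 4 sites each, and the lines of NCED3, ABI1, ABI2 and HAI1 are empty.

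The core was not found in these windows of NCED3, ABI1, ABI2 and HAI1, which says only that these letters are missing there. Members with and without it were found on both sides of 0: HAI2 with 4 cores had a negative and PP2CA with 4 cores a positive log2 fold change. Neither of these fold changes passed with every library kept (adjusted p = 0.101 and 0.233, limma). A link between the core and the change was not tested.

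The HAI genes are 3 phosphatases known for strong induction by ABA and drought. HAI1 (AT5G59220, chr5:23894404-23896939, minus strand) had 178.9, 132.5, 106.8 and 125.5 normalized counts in the aerated libraries and 151.5, 164.8, 176.4 and 350.3 in the non-aerated libraries. The mean of the non-aerated libraries rested on library 8, and the other 3 lay below aerated library 1. On average the log2 fold change was 0.57 (SE 0.27, adjusted p = 0.161, limma), and 0.29 without library 8.

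HAI2 (AT1G07430, chr1:2280746-2282828, minus strand) went the other way, with 44.5, 27.4, 56.7 and 53.3 normalized counts with air flow and 18.6, 19.2, 8.5 and 45.2 without. Here library 8 was the exception, standing within the aerated range while the other non-aerated libraries lay below it. The log2 fold change of -1.14 (SE 0.45, adjusted p = 0.101, limma) did not pass the test. Without library 8 it was -1.53 and passed (adjusted p = 0.0182, limma), and no other omission passed. Without library 6 the log2 fold change was -0.77 (adjusted p = 0.213, limma). Between 8 and 62 reads per library lay behind these values, and the 95% Poisson interval of the 8 reads in library 6 was 3.45 to 15.8 reads, which covers counting error only.

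With 1 added to each count, the ratio of HAI1 to HAI2 within a library was 3.95, 4.70, 1.87 and 2.33 with air flow and 7.78, 8.21, 18.7 and 7.60 without. HAI1 was thus above HAI2 in every library, and the ratios of the treatments did not overlap. How often within-library ratios of other genes separate was not counted, and 27.3% of all tested genes did so singly. The log2 ratio differed by 1.70 (SE 0.44, exact permutation p = 0.0286, two-sided), with p = 0.0857 after adjustment over the 6 pairs. It stayed between 1.39 and 1.92 when each library was left out. HAI3 (AT2G29380, chr2:12608675-12610350, plus strand) had 21, 8, 4 and 1 reads in the aerated and 4, 6, 21 and 4 reads in the non-aerated libraries. The treatments overlapped over nearly their whole range, the gene was too low for the test, and the ratios of HAI1 and HAI2 to HAI3 gave exact permutation p = 0.657 and p = 0.429 (two-sided), or 0.771 and 0.643 adjusted over the 6 pairs.

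**Figure D3:**
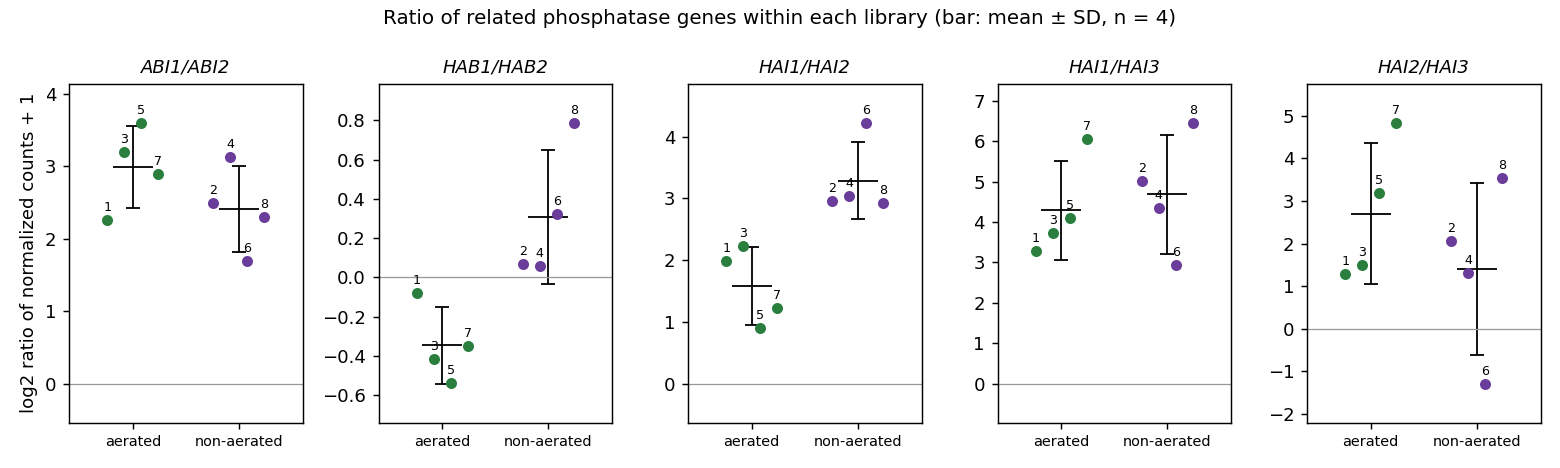
Log2 ratio of the normalized counts (plus 1) of 2 related phosphatase genes in each library on the vertical axis, with aerated libraries in green, non-aerated libraries in purple, library numbers at the points and bars for mean ± SD (n = 4). The treatments do not overlap for HAB1/HAB2 and HAI1/HAI2 and overlap for the other 3 pairs shown. The share of other gene pairs whose ratios separate was not counted.

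PP2CA and AHG1 are phosphatases best known from seeds, where their loss makes germination oversensitive to ABA, and PP2CA also acts on guard cell channels. PP2CA (AT3G11410, chr3:3583782-3585850, minus strand), also named AHG3, had 2323.3, 2154.0, 2336.4 and 1676.5 normalized counts with air flow and 2541.3, 1847.2, 3313.1 and 3156.1 without. Non-aerated libraries 2, 6 and 8 lay above every aerated library and library 4 within their range. On the log2 scale the difference was 0.33 (SE 0.19, adjusted p = 0.233, limma), and 0.50 without library 4, where it passed (adjusted p = 0.0434, limma). No other omission passed, and without library 7 the difference was 0.22 (adjusted p = 0.472, limma). AHG1 (AT5G51760, chr5:21026805-21029188, plus strand) had 0 reads in the 4 aerated libraries and 1, 1, 0 and 0 reads in the non-aerated libraries. A count of 0 allows up to 3 reads per library, so AHG1 was not detected above this limit in any library and no fold was computed. The ratio of PP2CA to AHG1, the last of the 6 pairs, has no interpretable value for this reason.

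Levels of different genes can be compared only per length. Per kilobase of exons, PP2CA had a mean of 1179 and ABI1 of 1044 normalized counts with air flow, and they did not separate between libraries. HAB2 (493) and HAB1 (374) followed and overlapped each other. ABI2 (128) was separate from both neighbours, HAI1 (65.2) and NCED3 (54.4) overlapped, and HAI2 (23.9), HAI3 (5.50) and AHG1 (0) came last. Without air flow PP2CA stood at 1508 and was separate from ABI1 at 849. The order of the HAB genes was turned, with 629 for HAB1 and 520 for HAB2, although per kilobase HAB1 was above HAB2 in only 2 of the 4 libraries. NCED3 stood at 33.7 and was separate from HAI1 (101) above it and from HAI2 (12.0) below it.

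The 9 phosphatases together had 7862, 7258, 7096 and 6644 normalized counts in aerated libraries 1, 3, 5 and 7 and 7473, 6903, 8622 and 10124 in non-aerated libraries 2, 4, 6 and 8. Libraries 6 and 8 lay above every aerated library and libraries 2 and 4 did not. ABI1 made up 25.3% to 36.5% of this sum with air flow and 15.2% to 29.9% without. HAB1 made up 10.3% to 17.9% and 18.0% to 24.6%, ranges that lay next to each other without overlapping. PP2CA held 25.2% to 32.9% and 26.8% to 38.4%. A share depends on the other genes in the sum, and these ranges were not tested.

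**Figure D4:**
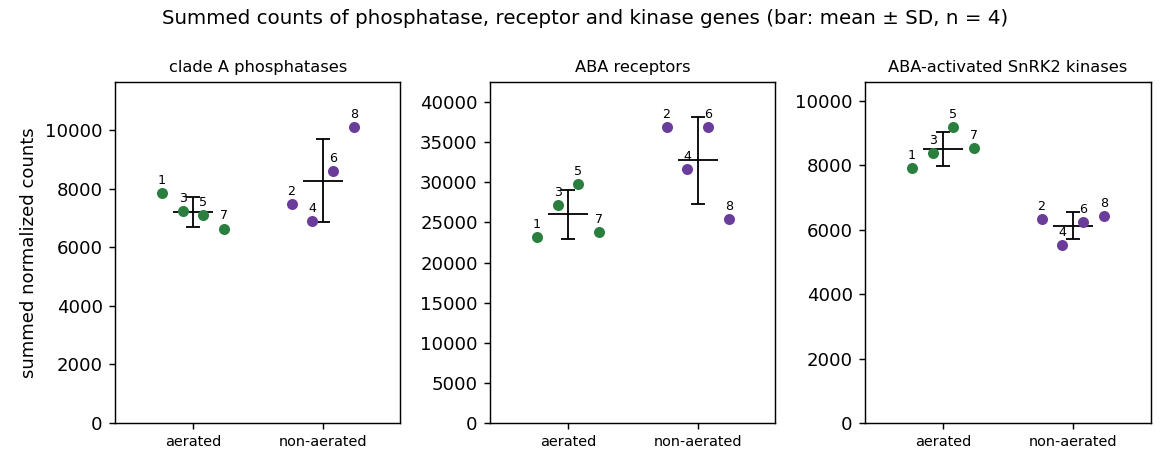
Summed normalized counts of the 9 clade A phosphatases, the 14 ABA receptors and the 3 ABA-activated SnRK2 kinases on the vertical axes, by treatment, with library numbers at the points and bars for mean ± SD (n = 4). The phosphatase sums overlap (6644 to 7862 against 6903 to 10124) and the kinase sums do not (7928 to 9203 against 5520 to 6441).

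Some phosphatase genes varied together between libraries of the same treatment, and ABI1 did not vary with them. ABI2, HAB1, HAB2 and HAI1 were all highest in library 1 and lowest in library 5 among aerated libraries, and 6 of the 8 tested members were highest in library 8 among non-aerated libraries. How often all genes had these orders was not counted. Library 8 also stood apart across all tested genes. Without it 2738 genes were called higher and 2327 lower (limma), against 2490 and 2018 with every library kept. Over the 8 libraries Pearson's r of the log2 values was 0.93 for HAB1 with HAI1, 0.89 for ABI2 with HAB2 and 0.86 for ABI2 with HAB1. Taken within treatments, these values were 0.90, 0.88 and 0.93. NCED3 varied with HAI2 (0.82, and 0.64 within treatments) and with ABI1 (0.71 and 0.52). ABI1 ran the other way to several phosphatases, with -0.63 for HAB2, -0.57 for ABI2, -0.56 for HAB1 and -0.49 for PP2CA, and within treatments -0.61, -0.48, -0.27 and -0.28. However, ABI1 varied with the phosphatase HAI2 (0.81, and 0.70 within treatments). With HAI1 its values were -0.22 and, within treatments, 0.17. The libraries differ in depth and treatment, so these values are descriptions over 8 points. The genes whose log2 values were most like those of NCED3 over the 8 libraries were SYTC (AT5G04220, a lipid-binding protein gene, r = 0.996), AT2G38370 (0.981) and the RING/U-box gene AT1G67856 (0.980). Those most like ABI1 were AT1G71910 and AT1G70420 (0.974 each) and PDCB5 (0.973), a gene for a callose-binding protein of plasmodesmata. None of the genes most like ABI1 was called (adjusted p between 0.191 and 0.303, limma). The genes named for NCED3 and for ABI1 had the highest r in a search of 20160 tested genes over 8 points, and such a search favours high values.

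The phosphatases are similar genes, and reads could be split between copies. Coding sequences of HAB1 and HAB2 were 74.6% identical in a global alignment and those of ABI1 and ABI2 72.6%. HAI1 and HAI2 shared 62.6%, HAI2 and HAI3 62.0% and HAI1 and HAI3 59.1%. The longest stretch of exon sequence shared by any 2 of the 9 phosphatase genes was 33 bases, in HAB1 and HAB2, where reads were 100 bases long.

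The other genes of the pathway were taken from 8 lists of 69 genes, of which 55 were tested. Of these, 12 were higher and 10 lower without air flow, with a median log2 fold change of -0.08. Thus 22 of 55 (40%) were called where the share over all genes was 22.4%, and the difference between these shares was not tested. Leaving out library 7 moved the count of higher genes to 5, and leaving out library 2, 3, 5 or 6 moved it to 7. The strongest differences lay in removal and transport of ABA. CYP707A3 (AT5G45340), an ABA hydroxylase that starts its breakdown, had 149.6 to 258.1 normalized counts with air flow and 1015.6 to 2383.8 without. On the log2 scale it was higher by 2.88 (SE 0.27, adjusted p = 0.000187, limma). DTX50 (AT5G52050), a transporter that carries ABA out of cells, had 46.1 to 114.2 and 837.6 to 1775.8 normalized counts, a log2 fold change of 3.83 (SE 0.31, adjusted p = 0.000117, limma). The treatments did not overlap in either gene, and both stayed called without each library in turn.

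In synthesis, 1 of 5 tested genes was higher and 0 were lower. AAO3 (AT2G27150), the aldehyde oxidase of the last step, had 580.1 to 1204.9 normalized counts with air flow and 1516.8 to 2529.1 without, a log2 fold change of 1.03 (SE 0.24, adjusted p = 0.0121, limma). NCED3, which acts upstream of AAO3 in the same route, thus had a log2 difference of the opposite sign. ABA2, the dehydrogenase between them, stood at -0.34 on the log2 scale (adjusted p = 0.113, limma). Of the fits that left out a library, only that without library 5 called it (adjusted p = 0.0250, limma). Among 7 tested genes of breakdown and conjugation 2 were higher and 1 lower, which became 1 higher without library 3, 4, 5, 6, 7 or 8 and 0 lower without library 1, 3, 4, 7 or 8. The glucosidase BGLU18, which releases ABA from its glucose ester, had the smallest value, -0.40 (adjusted p = 0.159, limma). Of 4 transporters 2 were higher and 0 lower, and the importer ABCG40 stood at -0.02 (adjusted p = 0.951, limma), with values from -0.14 (without library 4) to 0.08 (without library 6).

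Receptors and kinases stand on either side of the phosphatases. Of 9 tested receptor genes 4 were higher and 2 lower, with the largest value for PYL6 (log2 fold change 0.97, adjusted p = 0.0195, limma; lost without library 2, 5 or 7) and the smallest for PYL9 (-0.60, adjusted p = 0.00526, limma). The count of higher receptors was 0 without library 2 or 7, 1 without library 3 or 6 and 2 without library 1 or 5, and that of lower receptors was 1 without library 3, 5, 6, 7 or 8. Of the 3 kinases 2 were lower, SNRK2.3 (AT5G66880) from 2023 ± 229 to 1099 ± 359 normalized counts (SD, n = 4 each; log2 fold change -0.93, adjusted p = 0.0106, limma) and SNRK2.2, chosen after its values were seen (-0.62, adjusted p = 0.00156, limma). SNRK2.6, also called OST1, which acts in guard cells, stood at 0.43 (adjusted p = 0.0818, limma). Of the fits that left out a library, only that without library 8 called it (adjusted p = 0.0283, limma). The sums of the 3 kinases did not overlap, at 7928 to 9203 against 5520 to 6441 normalized counts. Guard cell markers were lower in sum as well, at 2617 to 2726 against 1720 to 2095, with 2 of 4 called. KAT1 (-0.68) and MYB60 (-0.69) were called. SLAC1 (-0.49, adjusted p = 0.143, limma) and FAMA (-0.11, adjusted p = 0.532, limma) were not, and both overlapped between treatments. The part of guard cells in these values was not tested.

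Downstream, 1 of 5 tested transcription factor genes was lower, ABF1 (AT1G49720), from 1145 ± 102 to 540 ± 118 normalized counts (SD, n = 4 each; log2 fold change -1.10, standard error 0.15, adjusted p = 0.00103, limma). ABF2 had the largest value of this list (0.14, adjusted p = 0.619, limma), which turned to -0.05 without library 8. Of 18 tested ABA-responsive targets 2 were higher, or 1 without library 2, 3, 5, 6 or 7, and 4 were lower. The dehydrin gene RAB18 was higher (log2 fold change 1.22, adjusted p = 0.0459, limma), with 567.0 to 1646.3 and 926.0 to 2303.4 normalized counts that overlapped, and its call was lost without library 2, 3, 5, 6, 7 or 8. The homeobox gene HB12 (-1.09, adjusted p = 0.00671, limma) and the cold-regulated chloroplast protein gene COR15A (-1.06, adjusted p = 0.00313, limma) were lower in every fit that left out a library. KIN1 was lower as well (-1.07, adjusted p = 0.0220, limma), a call lost without library 1, 2, 3, 5 or 6. The linker histone gene HIS1-3 had the smallest value, -1.27 (adjusted p = 0.0761, limma). Library 4 stood apart, with 56.5 normalized counts where the other non-aerated libraries had 272.1 to 313.4, and without it the log2 fold change of HIS1-3 was -0.69 and passed (adjusted p = 0.00842, limma). It also passed without library 8.

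**Figure D5:**
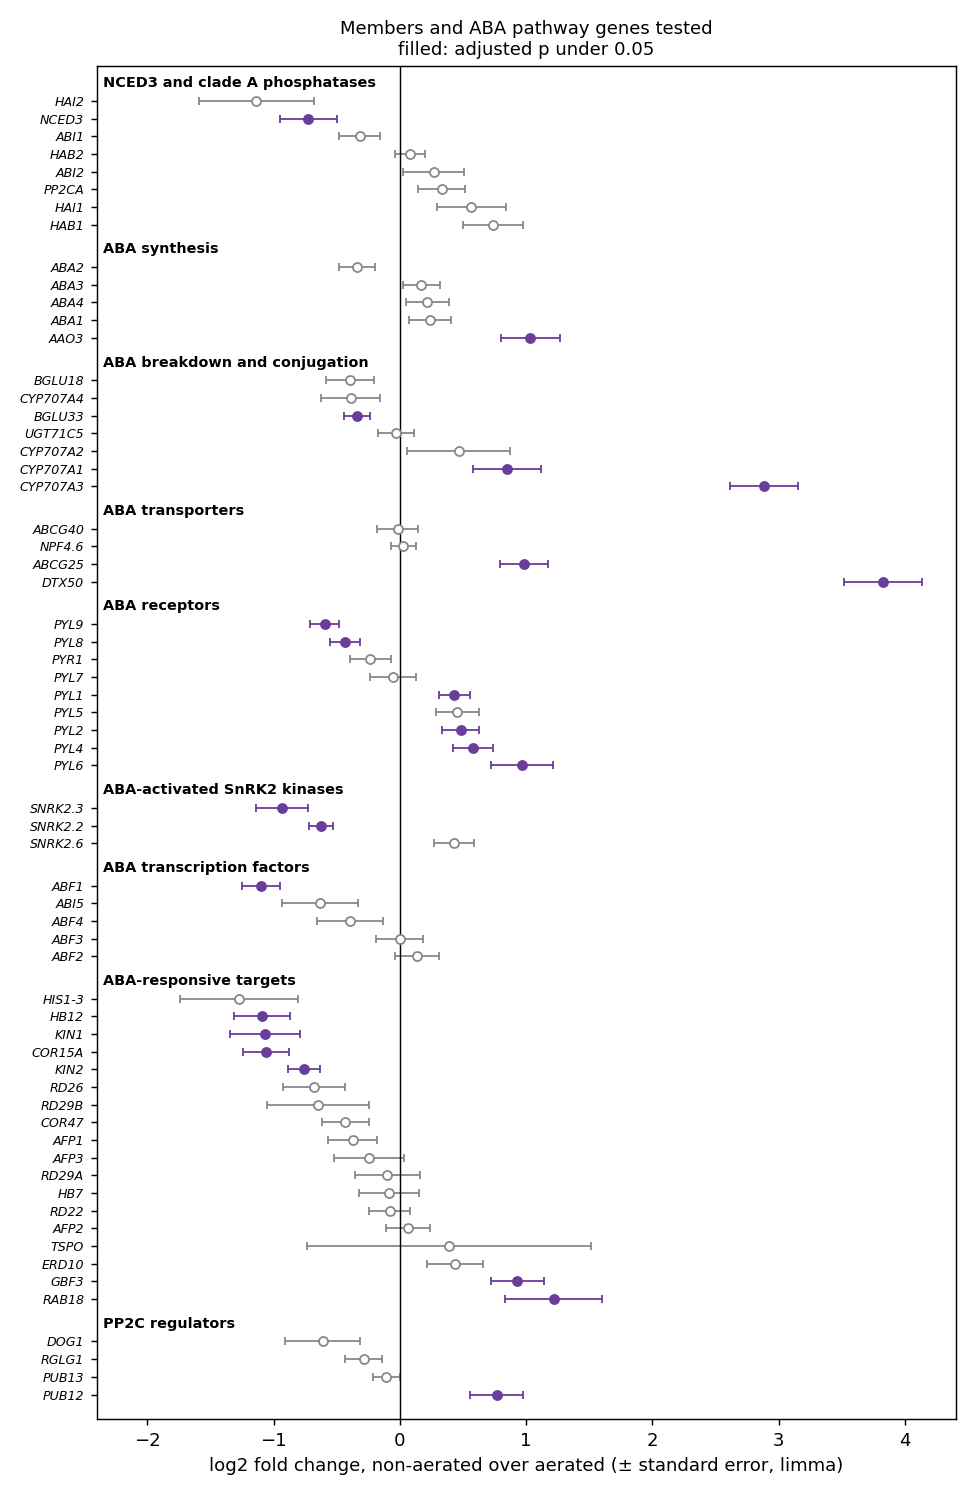
Log2 fold change (non-aerated over aerated, with standard error) of each tested member and pathway gene on the horizontal axis, grouped by list, with filled symbols for an adjusted p under 0.05. NCED3 is the only filled symbol in the first group, and CYP707A3 (2.88) and DTX50 (3.83) lie farthest to the right.

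Of 4 tested genes for proteins that act on clade A phosphatases, 1 was higher. PUB12, an E3 ligase for ABI1, had 267.7 to 328.9 normalized counts with air flow and 395.8 to 816.0 without (log2 fold change 0.77, adjusted p = 0.0272, limma), a call lost without library 1, 5 or 7. DOG1, a dormancy protein that binds AHG1 and PP2CA, had the smallest value (-0.61, adjusted p = 0.167, limma). Of the fits that left out a library, only that without library 8 called it (adjusted p = 0.0299, limma). Outside clade A, 68 other PP2C genes were listed and 59 tested. Of these 17 were higher and 7 lower (40.7%), with a median log2 fold change of 0.11. Among all tested genes 22.4% were called, and of the 7 tested clade A genes 0 were called with limma. The difference between these shares was not tested.

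Recovered depth ranged from 34330463 to 60255788 reads per library. Of the 3 shoot markers all were tested and 0 called, with log2 fold changes of -0.20 for RBCS1A, -0.41 for LHCB1.3 and 0.17 for RCA. The 4 root markers summed to 34.3 to 149 with air flow and 19.5 to 86.7 without, with 2 tested and 0 called. No marker of guard or companion cells was at 0 in any library. Of 4 seed markers 1 was tested and higher, SESA1, which had 0.9 to 3.4 normalized counts with air flow and 30.1 to 158.0 without and carried most of the list's sum in the non-aerated libraries (sums of 7.8 to 19.3 and 33.9 to 172.9). The other 3 were too low for the test, with OLEO1 at 2.3 to 2.6 and 0 to 0.8 and with CRA1 and CRU3 overlapping between treatments. In whole shoots, fewer cells of a type and less RNA per cell cannot be told apart.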

How the data were processed

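Libraries were unstranded, with single-end reads of 100 bases from total RNA of pooled shoots. Mapping by the authors used HISAT2 2.0.4 and the TAIR10 genome, and featureCounts 1.5.2 assigned reads to Araport11 genes (release 201606). The deposited signal is each gene's normalized count, its reads divided by the library's DESeq2 size factor and rounded to 1 decimal. The authors' fold change and p-value columns, and the table of the second set (1472 genes), hold their own comparisons and were not used. Of 33296 identifiers, 33011 matched the reference gene table.

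The steps between low values (0.753 to 1.319 normalized counts per read) gave whole reads for 100% of values within a tolerance of 0.06. The model, limma 3.58.1 with a trend, took log2(normalized count + 1) of 20160 genes with at least 10 in at least 4 libraries (3 where a library was left out). Alternatives were edgeR 4.0.16 quasi-likelihood (TMM or DESeq2 size factors) and DESeq2 1.42.0 on recovered reads, no filter beyond 1 read, pseudocounts of 0.5 and 10, TMM or library totals before limma, and leaving out each library. On simulated data with 200 changed genes of 20074, limma recovered 199 with 7 false calls. The simulation gave every gene the same dispersion and changed only better expressed genes, by at least 2-fold. It therefore does not measure power for smaller changes or for genes that vary more between libraries. Single genes and within-library ratios were tested with exact permutation tests over 70 labelings. Libraries came from separate dishes, so p-values measure the spread between dishes. The paper describes a setup in which a single flask can supply air to 4 dishes. Whether the aerated dishes shared an air source is not stated. Named genes are all members, pathway genes with a called 2-fold change, the largest and smallest value of each pathway list, and the 3 genes most correlated with NCED3 and with ABI1. Other genes named (the other NCED genes, SNRK2.2, AT4G26070 and cell type markers) fall outside this rule and were chosen after their values were seen. The members and gene lists were chosen with earlier results of these data known. Loci and sequences are from TAIR10.1. Protein sequences were not analysed here, and coding sequences were compared instead.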

Additional observations from a re-analysis of the deposited data

Results flagged for a closer look

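Within groups of 4 libraries, a value was singled out where its gap to the nearest other value exceeded Dixon's critical share of the group's range, which chance gives in about 1 of 20 groups. Of 31 groups examined, 3 passed. NCED3 had 119.3 normalized counts in aerated library 1, far below the other 3 aerated libraries. HAI1 had 350.3 in non-aerated library 8, far above the other 3. The log2 ratio of HAI1 to HAI2 was 4.22 in non-aerated library 6, where HAI2 had its lowest value.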

How the results depend on the processing

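No paired analysis was possible because the table names its libraries without the replicate numbers of the labels, and the planned replicate block was not run. The count of members called lower (1) was 0 with edgeR and TMM, 0 with edgeR and DESeq2 size factors and 0 with no filter beyond 1 read, where more genes were tested. It ranged from 0 to 2 when each library was left out. The count called higher (0) was 1 with DESeq2 and ranged from 0 to 2 without each library. Genes called lower ranged from 1155 (without library 7) to 2327 (without library 8) and ABA pathway genes called higher from 5 to 13 when libraries were left out. The log2 fold change of HAB2 ranged from -0.012 (without library 5) to 0.15, and the difference of the log2 ratio PP2CA to AHG1 turned from -0.18 to 0.26 with a pseudocount of 10, AHG1 being at or under the counting limit. Over the 8 tested members and 16 alternatives, 112 values kept direction and side of the threshold, 9 lost and 6 gained the call, and 1 reversed. The cause of these changes was not tested. HAI3 and AHG1 had at most 21 and 1 reads per library, too few for a test.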
